A study of Mus musculus with 6 samples.

Results

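Leak and inward rectifier potassium channels were examined in whole embryonic mouse hearts. They were represented by 10 genes of 46983 in the deposited table, each taken by its exact name. Of these, 5 encode two-pore leak channels (Kcnk1, Kcnk2, Kcnk3, Kcnk5 and Kcnk6) and 5 encode inward rectifiers (Kcnj2, Kcnj3, Kcnj5, Kcnj8 and Kcnj11). All 10 genes passed the filter on low counts. They were chosen by name with the log2 fold changes of the same 6 hearts already known, so the differences between groups given for them are a description and not independent evidence.

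Leak channels of the Kcnk family carry a background potassium current that stays open over a wide range of voltages and draws the resting membrane toward the potassium equilibrium potential. Inward rectifiers of the Kcnj family pass current more easily into the cell than out of it. In the heart they stabilize the resting potential (Kcnj2), answer acetylcholine and adenosine through G proteins (Kcnj3 and Kcnj5) or sense the ATP of the cell together with sulfonylurea receptor subunits (Kcnj8 and Kcnj11).

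RNA was sequenced from single whole hearts at E13.5, 3 from mutant embryos labelled TnnT2Cre;Wt1flox (replicates 1, 5 and 10) and 3 from embryos labelled wild type (replicates 2, 3 and 5), all of a C57BL/6 x DBA/2 background. According to the methods of the study, the mutants carried 1 Tnnt2-driven Cre allele and both Wt1 alleles floxed, and the wild type embryos lacked Cre but also had both Wt1 alleles floxed. The Tnnt2 promoter drives Cre in the cardiomyocyte lineage, and the study describes that a fraction of the proepicardial cells recombines as well. It also reports that a substantial fraction of the epicardial cells at E13.5 comes from the Tnnt2 lineage, so the deletion is not limited to cardiomyocytes. The comparison sets hearts with this deletion against hearts without it. Only the mutants carried Cre, so effects of Cre itself and of the loss of WT1 cannot be told apart. Because whole hearts were used, fewer cells of a type and less RNA per cell cannot be told apart.

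The hearts had between 44244665 and 56373393 counts. The targeted gene Wt1 had between 879 and 2251 counts in wild type hearts and between 921 and 1796 in mutant hearts, with a log2 fold change of −0.10 (SE 0.31) that became positive when wild type replicate 2 (0.13) or mutant replicate 1 (0.16) was left out. Gene-level counts of a whole heart do not separate floxed from recombined alleles. All 5 cardiomyocyte markers (Tnnt2, Myh6, Myh7, Actc1 and Nkx2-5) were detected, with a summed level of 12477 to 15822 FPKM over the wild type hearts and 14909 to 15213 FPKM over the mutant hearts. Some hearts stood apart in single marker lists. The 4 hepatocyte markers summed to 830 FPKM in wild type replicate 3, and to 21.7 FPKM or less in each of the other hearts. The red cell markers summed to 55301 FPKM in wild type replicate 5 and 55970 FPKM in mutant replicate 10, and to between 17466 and 22221 FPKM in the others. Wild type replicate 5 also had the strongest trend with gene length (Spearman's rho of −0.434 across genes between a gene's deviation from its mean and its length). Other lists differed between the groups. The 4 macrophage markers summed to 20.3 to 26.6 FPKM in wild type and 34.6 to 41.7 FPKM in mutant hearts, with all 4 higher in the mutant. A list of foregut and airway epithelium summed to 13.3 to 14.5 and 26.1 to 37.0 FPKM. In it, Krt8 and Cldn3 were higher in every mutant heart, against 6.61% of all genes tested. Epcam, Cdh1, Sox2 and Nkx2-1 overlapped between the groups. Epcam had 267 counts in wild type replicate 5 and 264 in mutant replicate 5, against 10 to 37 in the other hearts. Sox2 (111 and 114, against 11 to 39) and Nkx2-1 (64 and 65, against 0 to 8) were also highest in these hearts. Cdh1 was highest in mutant replicate 5 (147 counts), followed by wild type replicate 3 (107) and wild type replicate 5 (63). The part of these markers in the results below was not tested, and values without a heart are given where they change a result.

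In the wild type heart, the leak channel Kcnk3 and the G protein-gated inward rectifier Kcnj5 were the most abundant transcripts of the group, and Kcnk2 was the least abundant. Levels of different genes can be compared only per length. In the deposited FPKM values (counts scaled to gene length and to the total counts of the heart), Kcnk3 had 32.9 ± 2.05 FPKM and Kcnj5 had 26.7 ± 1.74 FPKM (SD, n = 3). Kcnj11 followed with 16.0 ± 3.24 FPKM and Kcnj3 with 5.30 ± 0.355 FPKM. Kcnk6 (3.77 ± 0.664 FPKM), Kcnj2 (3.68 ± 0.227 FPKM) and Kcnj8 (3.27 ± 1.70 FPKM) formed a group whose ranges over the hearts overlapped. Kcnk5 had 1.93 ± 0.550 FPKM, and its range overlapped that of Kcnj8. Kcnk1 (0.953 ± 0.121 FPKM) and Kcnk2 (0.651 ± 0.217 FPKM) closed the order, each with a range below that of the gene before it.

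The length behind the deposited FPKM changed this order at the top. That length was 1697 bases for Kcnk2, 1173 bases for Kcnj11 and 2159 bases for Kcnk3, whereas the exons of GENCODE M21 cover 4943, 3677 and 3976 bases of these genes. When the counts were divided by the annotated exon bases, Kcnj5 stood first at 25.6 ± 1.67 FPKM and Kcnk3 second at 17.9 ± 1.11 FPKM in wild type hearts, with Kcnj5 higher in 3 of 3 wild type and 3 of 3 mutant hearts. On this scale Kcnj11 fell to 5.11 ± 1.04 FPKM and stayed the third, and Kcnk2 to 0.224 ± 0.0744 FPKM. Kcnj3, Kcnk6 and Kcnj2, at 3.72, 3.71 and 3.68 FPKM, could not be ordered beyond their spread. The choice of length also decided where Kcnk2 stood in the mutant hearts. It was eighth of the 10 genes in the deposited FPKM and last per annotated exon base. The fixed length by which counts are divided does not change the fold change of 1 gene between groups. A correction for each heart's trend with gene length did move log2 fold changes, for Kcnj2 from 0.31 to 0.23 and for Kcnk2 from 1.64 to 1.66.

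**Figure D1:**
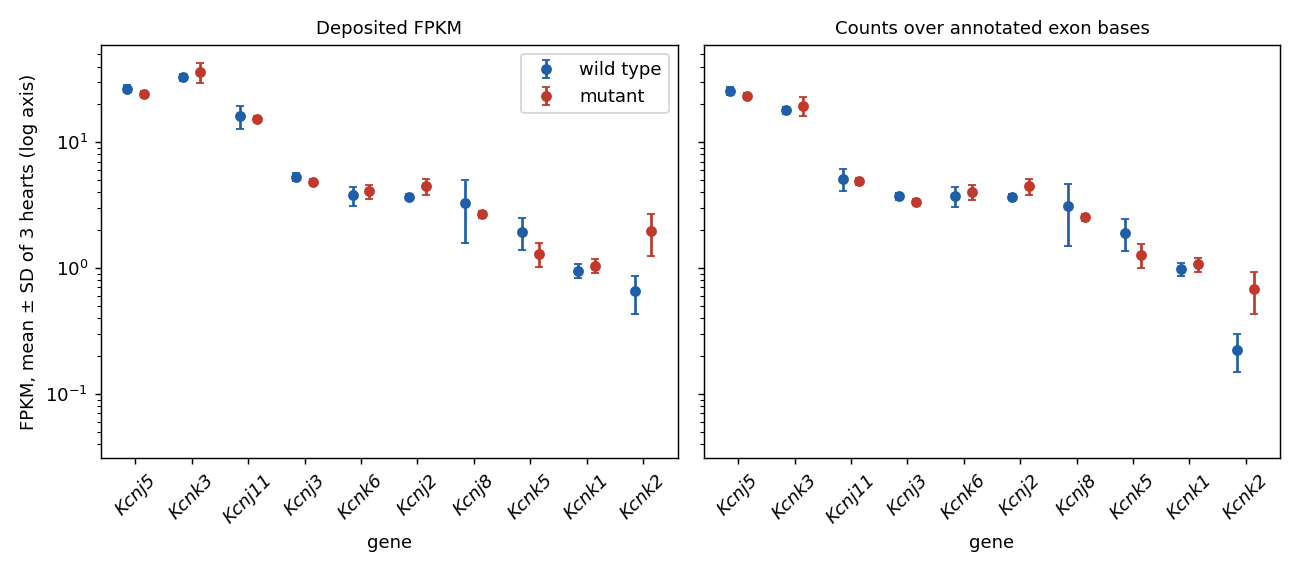
Mean level of each of the 10 channel genes in wild type (blue) and mutant (red) hearts on a log axis in FPKM, from the deposited values (left) and from counts divided by annotated exon bases (right); bars show the SD of 3 hearts. Kcnj5 and Kcnk3 exchange the first place between the panels (26.7 and 32.9 against 25.6 and 17.9 FPKM in wild type hearts), and Kcnk2 and Kcnj11 lie lower on the right.

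Kcnk3 and Kcnj5 had the largest shares of their families per exon base. Kcnk3 made up between 69.4% and 77.5% of the summed level of the 5 Kcnk genes per exon base over the 6 hearts, and Kcnj5 between 58.9% and 63.5% of that of the 5 Kcnj genes. In the deposited FPKM these shares were 78.7% to 85.3% for Kcnk3 and 45.6% to 49.3% for Kcnj5. The summed level of the Kcnk genes was 24.7 ± 1.18 FPKM per exon base in wild type and 26.6 ± 4.18 in mutant hearts (SD, n = 3 per group). For the Kcnj genes it was 41.2 ± 2.70 and 38.5 ± 1.22. Both sums overlapped between the groups.

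Between the groups, Kcnk2 was the gene of the 10 with the largest difference, and the other 9 differed by at most 0.56 on the log2 scale. When p-values of edgeR's quasi-likelihood test were adjusted by Benjamini-Hochberg over all 17473 genes tested, 0 of the 10 genes had an adjusted p under 0.05, as did 0% of all genes. An unadjusted p under 0.05 was reached by 2 of the 10 (Kcnk2 and Kcnk5), against 5.73% of all genes. The CPM values (counts scaled by the TMM-normalized library size) of the groups did not overlap in 1 of the 10 (Kcnk2), against 11.2% of all genes (6.61% with the mutant higher and 4.59% with it lower). A log2 fold change of 1 or more toward the mutant was found for Kcnk2 and for 1.2% of all genes. With DESeq2, the tool that the methods of the study name, 1 of the 10 (Kcnk2) had an adjusted p under 0.05, against 0.69% of the genes that DESeq2 could call. Since the genes were chosen with these results known, nothing is read from the counts. In the mutant, 5 genes were higher and 5 lower, with a median log2 fold change of 0.05, where the median of all genes tested was −0.0010 and 49.8% of them were higher. Leaving out 1 heart moved the median of the 10 genes between 0.02 and 0.15.

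**Figure D2:**
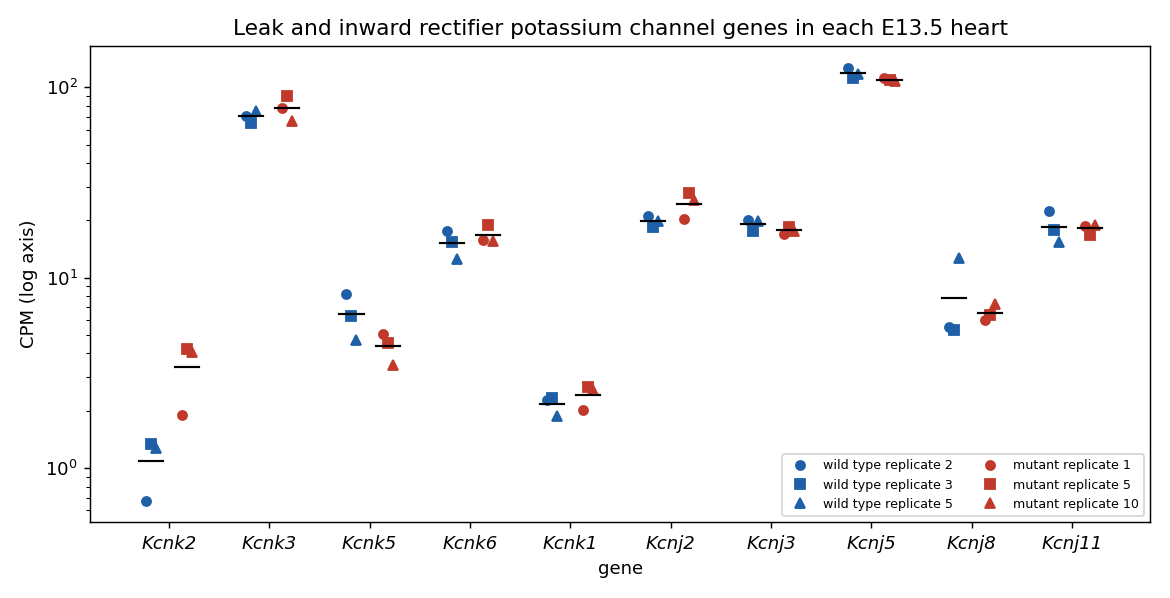
CPM of each of the 10 channel genes in every heart, on a log axis, with wild type hearts in blue, mutant hearts in red, a marker shape for each replicate and a black line at the mean of the group. Only Kcnk2 has all 3 mutant hearts (1.91 to 4.24 CPM) above all 3 wild type hearts (0.675 to 1.34 CPM), and wild type replicate 5 stands above the other hearts for Kcnj8 (12.7 CPM).

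Kcnk2 encodes TREK-1, a leak channel that opens on stretch of the membrane and is modulated by lipids, temperature and G protein-coupled receptors. The gene (ENSMUSG00000037624) lies on the minus strand of chromosome 1 from 189207930 to 189402273 (GRCm38). Wild type replicates 2, 3 and 5 yielded 38, 77 and 56 counts of it, and mutant replicates 1, 5 and 10 yielded 99, 222 and 205. In CPM these were 0.675, 1.34 and 1.27 in wild type and 1.91, 4.24 and 4.07 in mutant hearts. Every mutant heart was above every wild type heart, with mutant replicate 1 nearest to the wild type values. The means were 1.095 ± 0.366 and 3.40 ± 1.30 CPM (SD, n = 3 per group), a log2 fold change of 1.64 (SE 0.39) or 3.11-fold.

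The call for Kcnk2 depended on the tool and on single hearts. Its adjusted p was 0.416 with edgeR and 0.00663 with DESeq2. With DESeq2 the adjusted p was 0.104 without wild type replicate 2, 0.302 without mutant replicate 5 and 0.247 without mutant replicate 10, fits in which 0.512%, 0.357% and 0.408% of all genes passed. It was 0.0133, 0.00455 and 1.63e-04 without wild type replicate 3, wild type replicate 5 and mutant replicate 1, where 0.578%, 2.54% and 0.773% of all genes passed. The log2 fold change stayed between 1.38 and 1.93 in the 6 fits of edgeR that each left out 1 heart. As a share of the summed Kcnk level per exon base, Kcnk2 stood at 0.532%, 1.17% and 1.05% in wild type replicates 2, 3 and 5 and at 1.47%, 2.80% and 3.50% in mutant replicates 1, 5 and 10.

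Start sites of Kcnk2, the first and the fourth, are shown because the gene had the largest difference and WT1, the protein whose gene was floxed, binds DNA through zinc fingers. RefSeq (GRCm38.p6) lists 4 start sites, and the gene-level counts do not say which of them was used. The 250 bases before each start were searched on both strands for GCGTGGGAG and GCGGGGGCG, letters known to be bound by zinc fingers of WT1 and of the related EGR proteins, and for the looser form GNGNGGGNG that holds both. The first start, chr1:189402274-189402523 on the minus strand, coincides with the annotated 5′ end of the gene and held none of them. The second window held none either, and the third held 1 match to the looser form. The fourth, chr1:189343354-189343603 on the minus strand, held GCGGGGGCG beside an overlapping second match to the looser form. Both matches of the fourth window are marked in capitals. Sequences are given 5′ to 3′.
Kcnk2 start 1: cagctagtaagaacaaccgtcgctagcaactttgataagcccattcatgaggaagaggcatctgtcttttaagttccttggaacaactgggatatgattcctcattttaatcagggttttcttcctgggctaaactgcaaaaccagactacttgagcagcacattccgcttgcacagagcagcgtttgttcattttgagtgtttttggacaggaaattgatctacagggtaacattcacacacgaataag
Kcnk2 start 4: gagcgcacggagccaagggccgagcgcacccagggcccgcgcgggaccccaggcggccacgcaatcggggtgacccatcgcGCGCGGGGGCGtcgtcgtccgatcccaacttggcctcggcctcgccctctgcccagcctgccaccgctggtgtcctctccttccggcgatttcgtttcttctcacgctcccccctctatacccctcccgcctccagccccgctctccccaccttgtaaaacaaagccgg

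Promoters were found in the RefSeq table for 7 of the 10 genes, and not for Kcnk3, Kcnk6 and Kcnj11. GCGTGGGAG was in none of the windows of these 7 genes and in 0.405% of all 32851 windows of this length. GCGGGGGCG was found in the fourth window of Kcnk2 alone among the 7 genes and in 2.57% of all windows. Kcnk2 had 4 windows and each of the other genes 1, so this share per window is not a share per gene. The fourth window of Kcnk2 was also rich in G and C (70.4%). The looser form was common, in 35.8% of all windows. It had 6 matches before Kcnj5, 4 before Kcnj8, 1 each before Kcnk5, Kcnj2 and Kcnj3, and 0 before Kcnk1. Several matches before Kcnj5 and Kcnj8 overlapped each other, so their number is not a number of separate sites. Such matches are a description of the letters and are no measure of binding.

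A second transcript lies opposite to Kcnk2. Exons of the antisense gene A430027H14Rik cover 12.2% of the exon bases of Kcnk2. Their reads cannot be told apart without strand, and the sources used here do not state that strand was used in the counting. Reads assigned to A430027H14Rik numbered 0, 1 and 0 in wild type replicates 2, 3 and 5 and 4, 4 and 2 in mutant replicates 1, 5 and 10, far below the counts of Kcnk2. No fold is given for it, because its wild type hearts were at 3 counts or fewer.

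Among the other leak channels, Kcnk5 had a negative log2 fold change and Kcnk3, Kcnk6 and Kcnk1 had small positive ones. Kcnk5 encodes TASK-2, which is opened by alkaline pH and is best known from epithelia (chromosome 14 from 20140057 to 20181809). It had 8.26, 6.31 and 4.70 CPM in wild type replicates 2, 3 and 5 and 5.06, 4.52 and 3.50 CPM in mutant replicates 1, 5 and 10. Wild type replicate 5 lay below mutant replicate 1, so the groups overlapped. The log2 fold change was −0.56 (SE 0.24, edgeR adjusted p = 0.867). Leaving out wild type replicate 2 gave −0.34, and leaving out wild type replicate 5 gave −0.74.

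Kcnk3 encodes TASK-1, an acid-sensitive leak channel known from atrial and conduction tissue (chromosome 5 from 30588170 to 30625271). It had 70.8, 65.1 and 75.5 CPM in wild type replicates 2, 3 and 5 and 78.2, 89.9 and 66.9 CPM in mutant replicates 1, 5 and 10. The highest and the second highest value were mutant, but mutant replicate 10 lay inside the wild type range. Its log2 fold change was 0.15 (SE 0.13). The antisense gene Gm9899, counted 202 to 262 times per heart, overlaps 5.76% of the exon bases of Kcnk3. Kcnk6, which encodes the TWIK-2 channel (chromosome 7 from 29221926 to 29232515), stood at 15.3 ± 2.54 CPM in wild type hearts and at 16.8 ± 1.92 CPM in the mutant. Kcnk1, which encodes TWIK-1 (chromosome 8 from 125995170 to 126030685), had 2.17 ± 0.248 and 2.42 ± 0.347 CPM. Their log2 fold changes were 0.14 (SE 0.15) and 0.16 (SE 0.22), and both genes overlapped between the groups. The size of these small differences depended on single hearts. Kcnk3 ran from 0.033 without mutant replicate 5 to 0.26 without mutant replicate 10. Kcnk6 ran from 0.018 without wild type replicate 5 to 0.26 without wild type replicate 2, and was at 0.029 without mutant replicate 5. Kcnk1 ran from 0.066 without wild type replicate 5 to 0.27 without mutant replicate 1, and was at 0.075 without mutant replicate 5.

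Of the inward rectifiers, Kcnj2 alone had a positive log2 fold change, and those of the other 4 were negative. Kcnj2 encodes the main subunit of the inward rectifier current of ventricular myocytes (chromosome 11 from 111066164 to 111076821). It had 21.1, 18.6 and 19.8 CPM in wild type replicates 2, 3 and 5 and 20.3, 27.7 and 25.5 CPM in mutant replicates 1, 5 and 10. Mutant replicates 5 and 10 were above all wild type hearts, whereas mutant replicate 1 lay inside their range. The log2 fold change was 0.31 (SE 0.14, edgeR adjusted p = 0.879), 0.43 without mutant replicate 1 and 0.20 without mutant replicate 5. The log2 fold changes of the 4 ventricular markers (Myl2, Irx4, Hey2 and Myl3) ran from 0.09 to 0.29. With edgeR, 0 of them passed after adjustment, as did 0% of all genes. The groups did not overlap for Irx4 only, against 11.2% of all genes. Their summed level overlapped between the groups, at 10394 to 12711 FPKM in wild type and 12014 to 13249 FPKM in mutant hearts. Their part in the level of Kcnj2 was not tested.

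Kcnj3 and Kcnj5 encode the subunits that assemble into the acetylcholine-gated potassium channel of atrial and nodal cells. Kcnj5 (chromosome 9 from 32314707 to 32344350) had 127.1, 112.0 and 117.5 CPM in wild type replicates 2, 3 and 5 and 112.4, 109.2 and 107.9 CPM in mutant replicates 1, 5 and 10. Kcnj3 (chromosome 2 from 55435970 to 55598145) stood at 20.2, 17.6 and 19.8 CPM in the same wild type hearts and at 17.1, 18.5 and 17.6 CPM in the mutant ones. The groups overlapped for both genes. Their log2 fold changes were −0.11 (SE 0.10) for Kcnj5 and −0.12 (SE 0.11) for Kcnj3, and stayed negative with each heart left out. Both were smallest without wild type replicate 2 (−0.061 and −0.075) and largest without wild type replicate 3 (−0.15 and −0.17). The ratio of Kcnj5 to Kcnj3 per exon base was steady, at 6.90 ± 0.261 in wild type and 6.91 ± 0.384 in mutant hearts (SD, n = 3 per group). Exons of Gm26794 on the opposite strand cover 31.1% of the exon bases of Kcnj3, and that gene had 18 to 37 counts per heart.

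Markers of the chambers that carry this channel varied beside the pair. Of 5 atrial markers, 4 had a negative log2 fold change (Myl7, Nppa, Sln and Nr2f2) and 1 a positive one (Myl4), with a median of −0.38 and a summed level of 4624 to 6273 FPKM in wild type and 3959 to 5127 FPKM in mutant hearts. These sums overlapped, and the groups did not overlap for Nr2f2 only, against 11.2% of all genes. Of 4 sinus venosus markers, 3 had a negative log2 fold change (Shox2, Tbx18 and Isl1) and 1 a positive one (Hcn4). Their sums did not overlap (53.8 to 63.5 and 43.0 to 46.5 FPKM), but Tbx18 and Hcn4 did. Shox2 and Isl1 did not overlap, against 11.2% of all genes. With edgeR, 0 of these atrial and sinus venosus markers passed after adjustment, as did 0% of all genes. Shox2 was the furthest from 0 among them, with a log2 fold change of −1.02 (SE 0.12) and an adjusted p of 0.0991 with edgeR and 2.05e-09 with DESeq2. Their part in the levels of Kcnj3 and Kcnj5 was not tested.

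**Figure D3:**
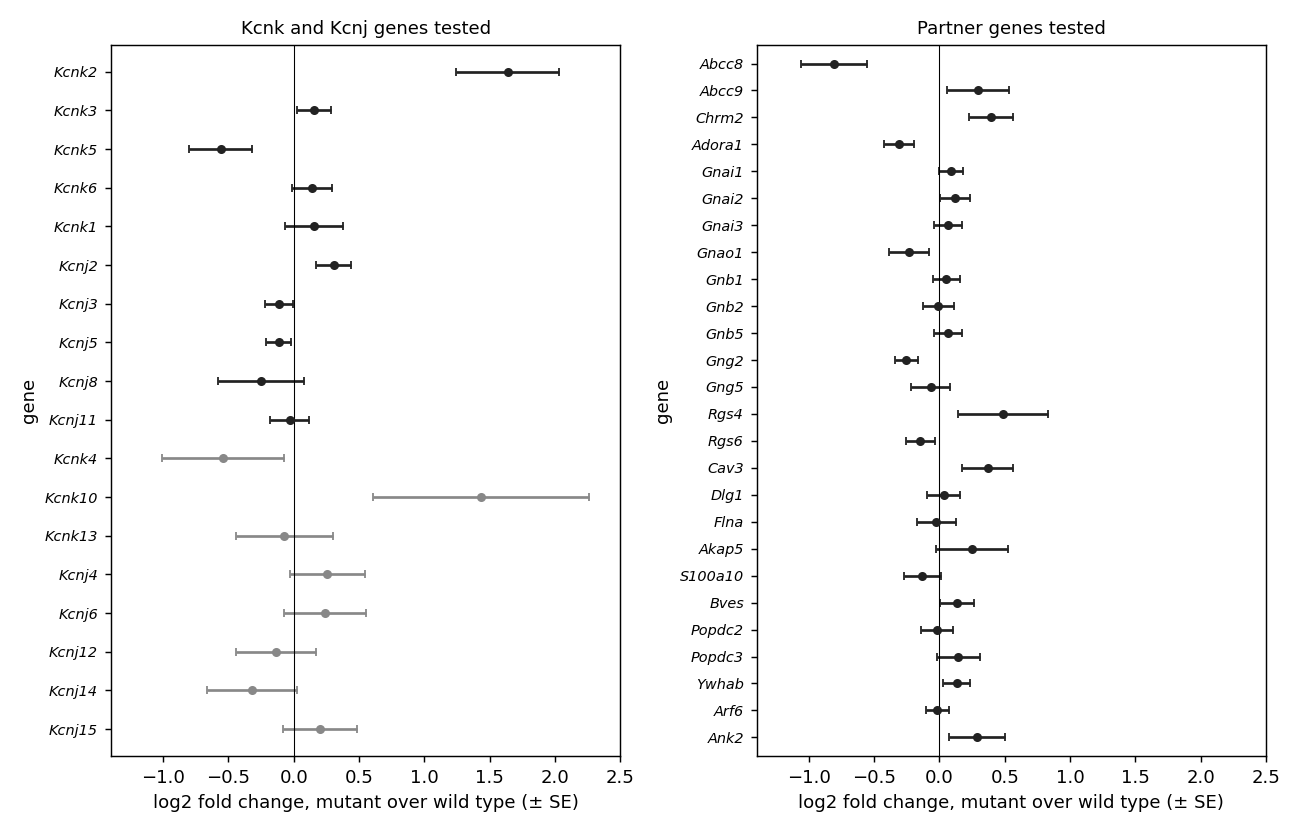
Log2 fold change of mutant over wild type with its standard error from edgeR, for the 10 described channel genes (black, left), the other Kcnk and Kcnj genes that could be tested (grey, left) and partner genes of the channels (right). Kcnk2 (1.64) stands apart from the other described genes, Kcnk10 has a similar value with a wide error (1.43, SE 0.82), and Abcc8 (−0.81) is the lowest of the partner genes.

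Kcnj8 and Kcnj11 encode the pore subunits of ATP-sensitive potassium channels, the first known from vascular muscle and pericytes and the second from cardiomyocytes. Each lies next to the gene of a sulfonylurea receptor subunit. Kcnj8 (chromosome 6 from 142564837 to 142571614) lies beside Abcc9 (from 142587862 to 142702315), and Kcnj11 (chromosome 7 from 46093953 to 46100764) beside Abcc8 (from 46104523 to 46180033). Kcnj8 had 5.49, 5.34 and 12.7 CPM in wild type replicates 2, 3 and 5 and 6.02, 6.33 and 7.29 CPM in mutant replicates 1, 5 and 10. The sign of the difference depended on wild type replicate 5, the highest heart. The log2 fold change was −0.25 (SE 0.33) with all hearts and 0.27 (SE 0.16, edgeR adjusted p = 0.528) without that heart. The summed level of 5 smooth muscle and pericyte markers was lowest in wild type replicate 5, at 686.5 FPKM against 701.8 to 810.2 FPKM in the other hearts, a sum carried by Acta2 and Tagln. The study used smooth muscle actin staining to show WT1-lineage cardiomyocytes, so this sum does not measure vascular muscle and pericytes alone. Within that list, Myh11 had 12.75 CPM in wild type replicate 5 against 3.46 and 3.74 CPM in wild type replicates 2 and 3, and 2.06, 15.59 and 2.58 CPM in mutant replicates 1, 5 and 10. Pdgfrb was lower in wild type replicate 5, at 37.78 CPM against 58.19 and 58.25 CPM in wild type replicates 2 and 3. Rgs5 in wild type replicate 5 (25.58 CPM) lay between wild type replicates 2 (27.65 CPM) and 3 (18.54 CPM). In mutant replicates 1, 5 and 10, Pdgfrb had 50, 47.35 and 32.59 CPM and Rgs5 had 56.1, 23.31 and 13.12 CPM. The part of these cells in the level of Kcnj8 was not tested.

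Kcnj11 had 22.5, 17.8 and 15.4 CPM in wild type replicates 2, 3 and 5 and 18.8, 16.8 and 18.9 CPM in mutant replicates 1, 5 and 10, so that the mutant values lay within the wild type range. Its log2 fold change was −0.03 (SE 0.15), and 0.13 without wild type replicate 2. Per exon base, Kcnj11 was at 2.85, 2.31 and 0.844 times the level of Kcnj8 in wild type replicates 2, 3 and 5, and at 2.16, 1.84 and 1.80 times in mutant replicates 1, 5 and 10. Only wild type replicate 5 had more Kcnj8 than Kcnj11. In the deposited FPKM the same ratio was 2.5 in that heart, so this order also rests on the length used.

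Neither receptor subunit of the ATP-sensitive channels passed after adjustment with edgeR, where 0% of all genes passed. Abcc8 had 12.9, 6.73 and 7.48 CPM in wild type replicates 2, 3 and 5 and 5.14, 5.04 and 5.35 CPM in mutant replicates 1, 5 and 10. All mutant hearts were below all wild type hearts, as was the case for 4.59% of all genes, and wild type replicate 2 was the highest by far. The log2 fold change was −0.81 (SE 0.25, edgeR adjusted p = 0.669), and −0.45 without wild type replicate 2. With DESeq2 its adjusted p was 0.171 with all hearts. It was 0.0231 without wild type replicate 5, the fit in which 2.54% of all genes passed, and between 0.0618 and 0.797 when any other single heart was left out. Abcc9 had 105.0, 87.4 and 54.3 CPM in the wild type hearts and 86.1, 120.7 and 96.0 CPM in the mutant ones, with groups that overlapped and a log2 fold change of 0.29 (SE 0.23). Leaving out wild type replicate 5 gave 0.07, and leaving out wild type replicate 2 gave 0.51. Within each heart, the ratio of Abcc9 to Abcc8 per exon base was 7.84, 12.55 and 7.02 in wild type replicates 2, 3 and 5 and 16.2, 23.15 and 17.35 in mutant replicates 1, 5 and 10, and the groups did not overlap. The ratio rests on the same Abcc8 values and is no separate evidence.

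**Figure D4:**
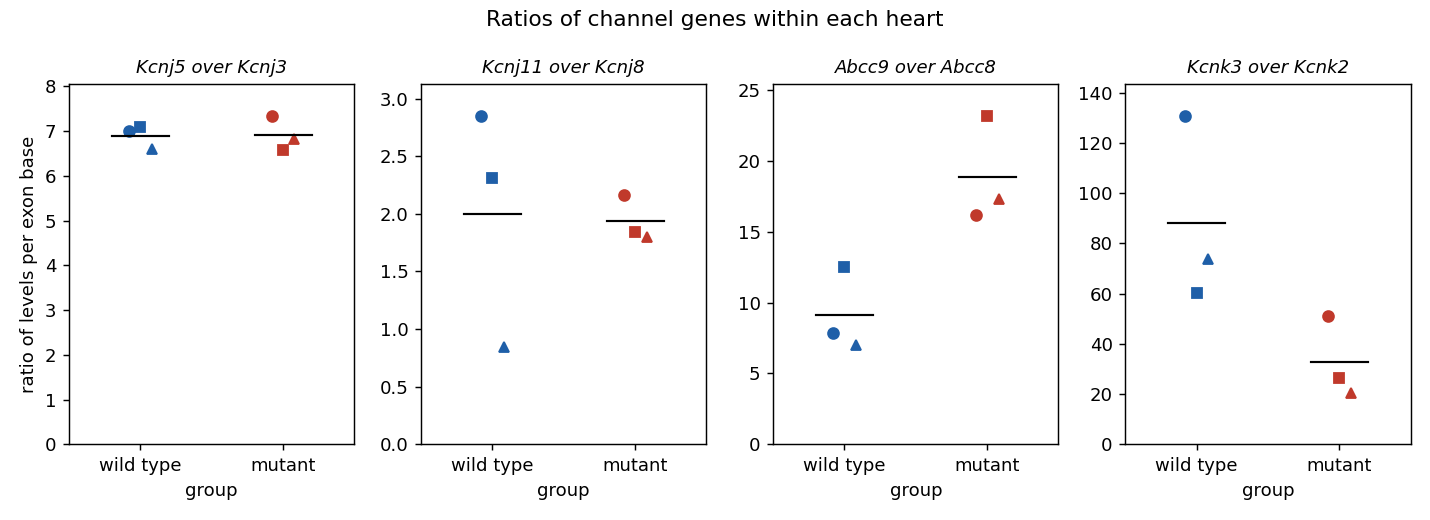
Ratios of the levels per exon base of 4 pairs of channel genes within each heart, with wild type hearts in blue, mutant hearts in red and a black line at the mean of the group; each axis starts at 0. Kcnj5 over Kcnj3 lies between 6.58 and 7.33 in all hearts, whereas Abcc9 over Abcc8 is higher and Kcnk3 over Kcnk2 lower in every mutant heart than in every wild type heart.

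The G protein route to Kcnj3 and Kcnj5 was described by 13 genes, all of them tested, of which 7 were higher and 6 lower in the mutant (median log2 fold change 0.05). With edgeR, 0 passed after adjustment (0% of all genes), 1 had an unadjusted p below 0.05 and was higher (3.14% of all genes), and 2 had one and were lower (2.59% of all genes). The receptors at the head of the route had log2 fold changes of opposite sign. Chrm2, the muscarinic receptor of the heart, had 18.6, 18.5 and 21.6 CPM in wild type replicates 2, 3 and 5 and 22.2, 32.6 and 22.2 CPM in mutant replicates 1, 5 and 10. The difference of 0.39 on the log2 scale (SE 0.17) fell to 0.17 when mutant replicate 5 was left out. Adora1, the adenosine A1 receptor, stood at 22.3, 18.99 and 23.5 CPM in the wild type hearts and at 17.8, 17.65 and 16.75 CPM in the mutant ones, a log2 fold change of −0.31 (SE 0.11). Of the exon bases of Adora1, 20.1% also belong to Mybph on the other strand. Gng2, a G protein gamma subunit, averaged 57.5 ± 2.09 CPM in the wild type and 48.3 ± 0.842 CPM in the mutant, a log2 fold change of −0.25 (SE 0.09). No overlap between the groups was found for 4 of the 13 genes (Chrm2, Adora1, Gng2 and Rgs6), against 11.2% of all genes. For Rgs6, a regulator of G protein signaling, the log2 fold change was −0.15 (SE 0.11).

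Proteins known to bind these channels, such as the caveolin Cav3, the scaffold Dlg1 and the Popeye proteins Bves, Popdc2 and Popdc3, were described by 11 genes. All were tested, 7 were higher and 4 lower (median 0.13), and the log2 fold changes ran from −0.13 to 0.37. With edgeR, 0 of them had an unadjusted p under 0.05, against 5.73% of all genes. The groups did not overlap for 1 of them (Ywhab, higher in the mutant), against 11.2% of all genes. The families hold 19 further genes, and 8 of these had enough counts to be tested. Among the other Kcnk genes, Kcnk4, Kcnk10 and Kcnk13 were tested. Kcnk10, a stretch-activated channel of the same branch as Kcnk2, was counted 12, 10 and 1 times in wild type replicates 2, 3 and 5 and 5, 19 and 35 times in mutant replicates 1, 5 and 10, with overlapping groups. Among the other Kcnj genes, Kcnj4, Kcnj6, Kcnj12, Kcnj14 and Kcnj15 were tested, with log2 fold changes between −0.32 and 0.26. None of the 8 had an unadjusted p under 0.05 with edgeR, against 5.73% of all genes. No read was assigned to Kcnk15, Kcnk18, Kcnj1 or Kcnj9 in any of the 6 hearts, which by counting error alone leaves room for up to 3 counts per heart.

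**Figure D5:**
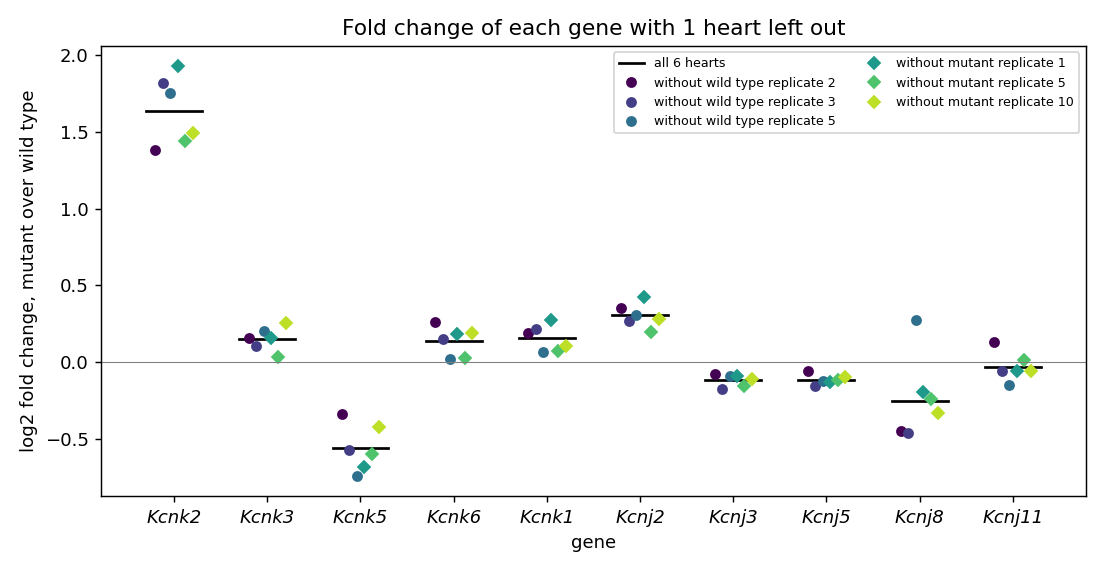
Log2 fold change of mutant over wild type for each of the 10 channel genes with all 6 hearts (black line) and after leaving out a single heart (points). Kcnk2 stays between 1.38 and 1.93, Kcnj8 turns from −0.25 to 0.27 without wild type replicate 5, and Kcnj11 moves across 0.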

How the data were processed

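Total RNA of single E13.5 hearts was sequenced in 6 libraries (TruSeq kit, paired ends). According to the methods of the study, the authors trimmed the reads with Trim Galore, aligned them to mm10 (GRCm38) with STAR and assigned uniquely mapped reads to GENCODE M19 genes with featureCounts (Rsubread 1.28.1). The labels' processing notes also name HTSeq. The authors deposited unnormalized counts per gene and FPKM values, whose making is not described. Every FPKM equals the count over 1 fixed length per gene and the total of the heart (largest relative deviation 6.15e-14). A further deposited table holds the group means of FPKM. No 2 hearts agreed within counting error, and all per-sample columns were mapped.

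Counts were tested with edgeR 4.0.16 (R 4.3.3) by the quasi-likelihood test with TMM normalization, filterByExpr (count minimum 10, total 15), two-sided, and genes were called at p under 0.05 after Benjamini-Hochberg adjustment. The SE is the log2 fold change over the root of F. Alternatives were DESeq2 1.42.0, limma 3.58.1 (voom, and trend on log2(FPKM + 1) or log2(FPKM + 0.1)), RLE size factors, no filter, a gene length correction (local regression, span 0.5) and each heart left out. DESeq2 with each heart left out and the levels per GENCODE M21 exon base were added after the data were seen. Fits with all hearts, other than the one without a filter, were also run on simulated counts with known changes. The simulated hearts had no trends with gene length and no differences in cell content of their own. The simulation therefore does not speak to such effects.

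The 10 genes and all lists were chosen with earlier results of these data known. The genes named are the 10, Wt1, Abcc8, Abcc9, Chrm2, Adora1 and members of the family and partner lists with an unadjusted p under 0.05. Other genes, such as Kcnk10, genes on the opposite strand and single markers, were named after their values were seen.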

Additional observations from a re-analysis of the deposited data

How the results depend on the processing

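Of the 10 channel genes, 8 kept the sign of their log2 fold change under all 13 other settings of the analysis. Kcnj8 turned positive without wild type replicate 5 (0.27 with edgeR's quasi-likelihood test and 0.27 with DESeq2). Kcnj11 turned positive without wild type replicate 2 (0.13 and 0.13) and without mutant replicate 5 (0.012 and 0.014). Wt1 turned positive without wild type replicate 2 (0.13 and 0.13) and without mutant replicate 1 (0.16 and 0.16). With 1 heart left out of the edgeR fit, the ranges were −0.46 to 0.27 for Kcnj8, −0.15 to 0.13 for Kcnj11 and −0.33 to 0.16 for Wt1. The log2 fold change of Kcnk2 was 0.83 in the trend fit on log2(FPKM + 1), a scale that shrinks low genes, and between 1.38 and 1.93 under the other 12, with an adjusted p between 0.00663 and 0.9999. One of the 10 genes was called by DESeq2 (1), and 0 by the other 12 settings. With DESeq2 and 1 heart left out, between 0 and 1 of them were called. Over all genes, edgeR's quasi-likelihood test called 0 with all hearts, 34 without a filter on low counts and 13 with the gene length correction. It called between 0 and 44 with 1 heart left out, the 44 without wild type replicate 5. DESeq2 called 133 with all hearts 139, 71 and 74 without mutant replicates 1, 5 and 10, and 95, 107 and 447 without wild type replicates 2, 3 and 5. The cause of these differences was not tested. No paired analysis was possible because the groups share only the replicate number 5. Kcnk2, with 38 to 222 counts per heart, and Kcnk1, with 83 to 139, were the least deeply counted of the 10 genes.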
